A study of Mus musculus with 3 samples.

Results

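The genes described here are the semaphorins, plexins and neuropilins, a family of guidance ligands and receptors. Members were taken by name, as the protein-coding genes of GENCODE M1 (mm9) called Sema3 to Sema7, Plxn, Nrp1 or Nrp2. The rule was met by 31 of 22380 protein-coding genes. The family itself was chosen with earlier results of these data known. The data come from whole hearts of wild-type Parkes mouse embryos at E11.5, in which chromatin bound by NKX2-5, a homeodomain transcription factor of the cardiac lineage, was collected with the N-19 antibody and sequenced (ChIP-seq). There were 2 NKX2-5 libraries, S1 and S4, of the same strain, stage and tissue, and 1 Input library, which was not analysed here. No treatment or second genotype was included, and the labels do not say how many hearts went into a library or whether S1 and S4 came from separate embryos. S1 held 4418 peaks and S4 held 5441, each with a position on mm9 and a score that is 10 times the negative log10 of the peak caller's p-value. No read totals entered the work, which leaves sequencing depth unknown. Where a score was higher in 1 library, a difference in binding and a difference in depth cannot be told apart. The lists carry no expression values, so heart markers could not be checked, and a peak in whole hearts does not show which cell type carried it.

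Semaphorins are ligands that steer axons, migrating cells and vessels. Those of class 3 are secreted, and most of them bind neuropilins, co-receptors that hand the signal to plexins. Classes 4 to 6 span the membrane, class 7 is anchored to it by a lipid, and these bind plexins directly. In the embryonic heart the family is best known from the outflow tract, where Sema3c attracts neural crest cells and Plxnd1 acts in the endothelium. NKX2-5 occupies regulatory sequence in cardiac cells, and the comparison made here asks at which of these genes both libraries had a peak at the same place.

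A gene was counted when a peak of S1 and a peak of S4 that overlapped by at least 1 bp had a midpoint in the gene body or within 50 kb of it. Such overlapping peaks are called a shared region. By this count 10 of the 31 genes had a shared region (32.3%, with a 95% interval of 16.7 to 51.4 by the exact Clopper-Pearson method, as for all intervals given, covering counting error alone). Among all protein-coding genes the share was 15.7%, and among genes of like length, averaged over the length classes of the 31 genes, it was 21.8%, which corresponds to 6.75 genes. The study has 1 condition and genes are not replicates, so the shares are described and no test of their difference was made.

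The 10 genes comprised 4 of 7 class 3 semaphorins (Sema3a, Sema3b, Sema3c and Sema3g), both neuropilins, 1 of 9 plexins (Plxna4), 1 of 6 class 4 semaphorins (Sema4b), 1 of 2 class 5 semaphorins (Sema5a) and 1 of 4 class 6 semaphorins (Sema6d). The single class 7 gene, Sema7a, which binds integrins and Plxnc1, had no peak, and its nearest shared region was 100 kb away. Genes of like length had a shared region in 24.2% for class 3, 30.3% for the neuropilins and for class 5, 20.3% for the plexins, 15.6% for class 4 and 23.1% for class 6. Another 8 genes had peaks without a partner in the other library, and 13 genes had no peak in either list. For neither count was the share over all protein-coding genes computed, so they describe these genes only. S1 had a peak at 14 of the 31 genes (45.2%), beside 34.4% of genes of like length. S4 had one at 16 (51.6%), beside 40.0%. The 10 genes carried 15 shared regions, of which Sema6d held 5 and Sema3a held 2, and no region was in reach of more than 1 of the genes. The region farthest outside a gene lay 26.6 kb from Sema3a, and the nearest beyond the 50 kb limit lay 62 kb from Sema3f and 81 kb from Plxnb2.

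**Figure D1:**
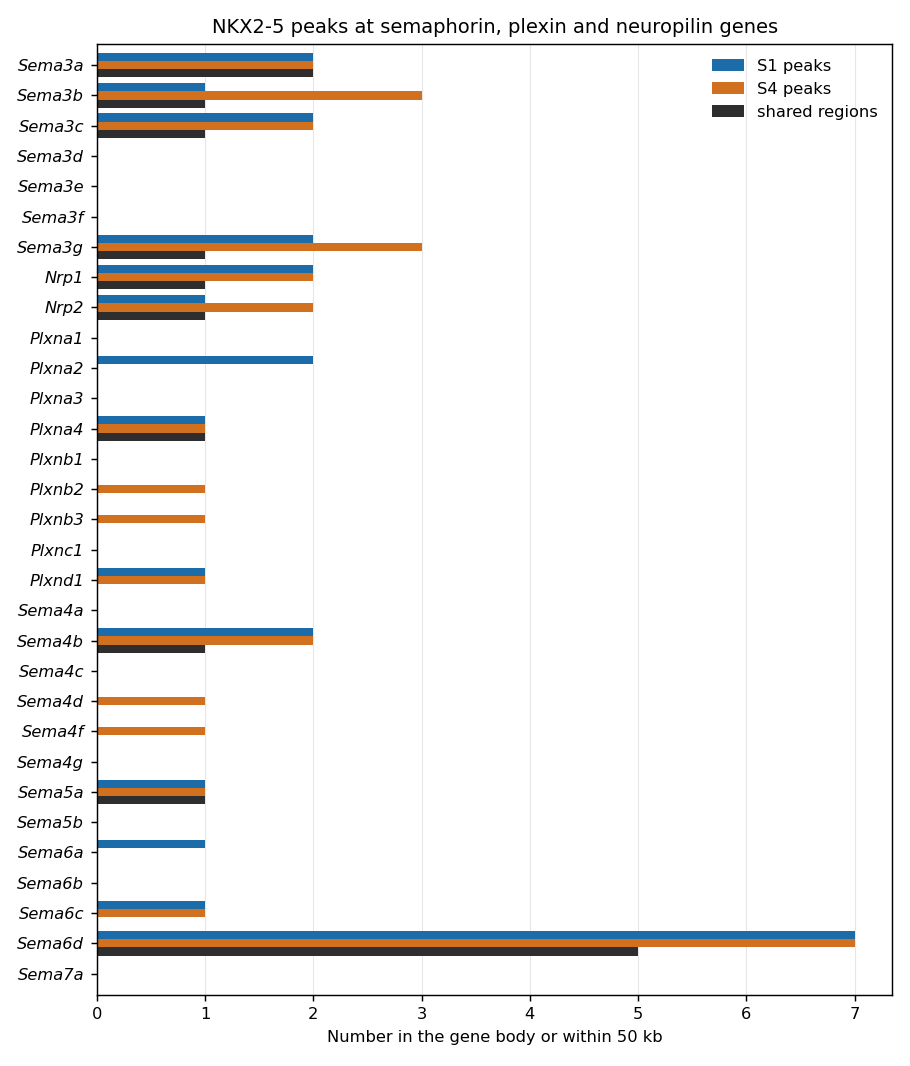
Number of S1 peaks (blue), S4 peaks (orange) and shared regions (black) in the body of each of the 31 genes or within 50 kb of it, ordered by role from secreted ligands to receptors and membrane ligands. Sema6d had 7 peaks in each library and 5 shared regions, and 13 genes had no bar.

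The share with a shared region differed between length classes across the genome. With protein-coding genes divided by length into 10 classes of 2238 genes, it was 5.27% in the shortest class, between 12.7% and 16.4% in classes 2 to 8 with no steady rise, 19.1% in class 9 and 30.3% in the longest, which spans 105 kb to 4435 kb. The longest class held 13 of the 31 genes, and 7 of these had a shared region (53.8%). In the other classes 3 of 18 genes did (16.7%), beside 15.6% for genes of like length. All 4 of the genes over 400 kb, Sema3a, Plxna4, Sema5a and Sema6d, had a shared region, a limit chosen after the values were seen, while 137 of 322 protein-coding genes of that length did (42.5%). Of the 9 genes of the longest class under 400 kb, 3 had one, beside 28.3% of 1916 protein-coding genes. The members in the longest class had a median length of 197 kb, and the class had a median of 177 kb.

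**Figure D2:**
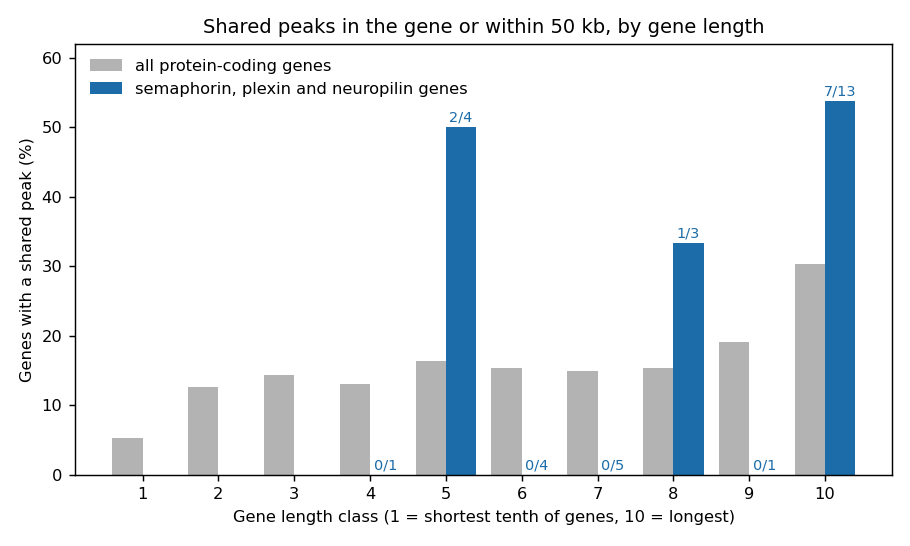
Percentage of genes with a shared peak in the gene body or within 50 kb (y axis) in 10 classes of gene length (x axis), for all protein-coding genes (grey) and for the semaphorin, plexin and neuropilin genes (blue, with the number of genes with a shared peak over the number in the class). The classes with members reach 2 of 4, 1 of 3 and 7 of 13, and the others with members are at 0.

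The regions were mostly inside the genes. A region was placed by the midpoint of the stretch that its S1 and S4 peaks have in common. Of the 15, 8 were centred in an intron of the gene, 1 in an exon, 4 upstream of it and 2 downstream. Within the longest class the gene body held 9 of 12 (75.0%), and over all genes of that class it held 73.3% of 999 pairs of a gene and a region. For 11 of the 15 no other protein-coding gene was in reach, which held for 38.5% of all shared regions in reach of a protein-coding gene. That share is not matched for length, while 12 of the 15 regions were at genes of the longest class.

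**Figure D3:**
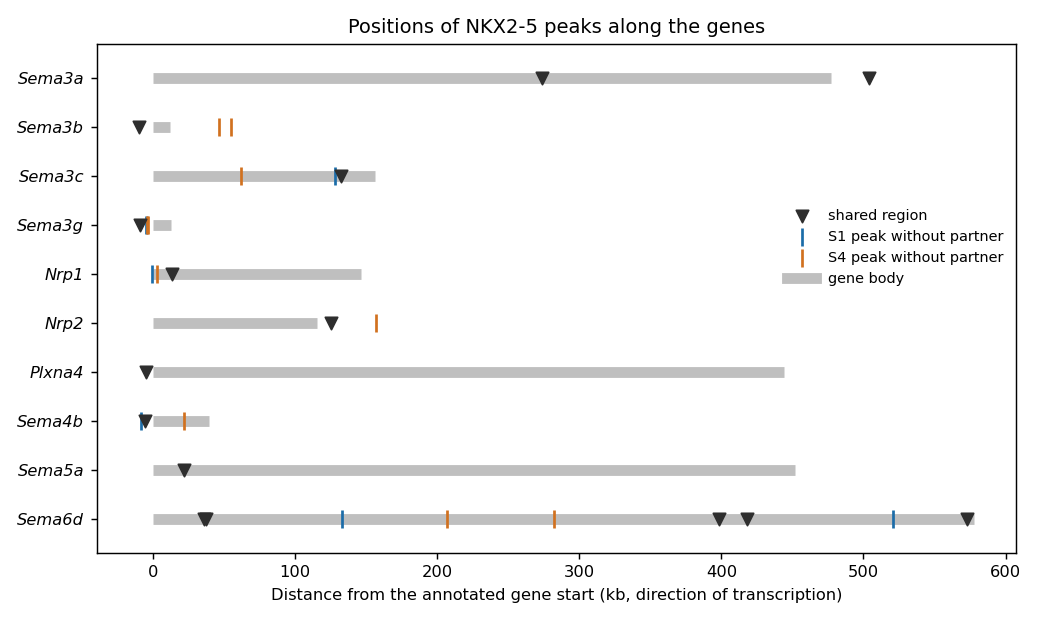
Positions of shared regions (black triangles) and of peaks without a partner (blue bars for S1, orange bars for S4) at the 10 genes with a shared region, as distance from the annotated gene start in kb along the direction of transcription, with gene bodies in grey. The first 2 triangles of Sema6d lie 35.7 kb and 37.1 kb from its start and overlap, and the region of Plxna4 lies just upstream of its gene.

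Among the secreted ligands, Sema3a, a repellent of axons that also patterns the sympathetic nerves of the heart, had 2 shared regions. The first lay at chr5:13398907-13399651, and scored 266 in S1 and 333 in S4. It is 274 kb inside the gene as annotated, but 4 of the 7 annotated transcript starts of Sema3a fall within the stretch, and its midpoint was 0.03 kb from the nearest. It was the only 1 of the 15 regions that covered a transcript start of its own gene. The second, at chr5:13628940-13629442, lay 26.6 kb past the 3′ end and scored 454 in S1 and 639 in S4, higher than the first in both libraries.

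The sequence reaching 100 bp to either side of its midpoint (chr5:13629091-13629291, mm9, plus strand) is shown for its score, which was the second highest lower score of the 15. Capitals mark the NKX2-5 core AAGTG and the MEIS1 core TGACA, or CACTT and TGTCA where they lie on the minus strand, together with the longer forms TNAAGTG and GTGNTGACA, which contain them.
Sema3a region 2: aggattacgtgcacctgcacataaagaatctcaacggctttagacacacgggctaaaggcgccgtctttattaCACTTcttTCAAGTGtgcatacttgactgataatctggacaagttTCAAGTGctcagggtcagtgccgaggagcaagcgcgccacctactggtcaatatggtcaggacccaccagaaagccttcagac
All windows printed for the other regions were cut in the same way and from the same strand. The window held AAGTG at 3 positions, and at 2 of them, on the plus strand, the match extended to TNAAGTG. No TGACA was present.

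Sema3b, a secreted ligand whose gene lies close to Sema3f, had the region with the highest scores, 2559 in S1 and 2059 in S4. By the lower of both scores it ranked 19 of all 2546 shared regions. It lay at chr9:107521368-107522309, 10.3 kb upstream of Sema3b, within an intron of Gnai2, which encodes an inhibitory G protein subunit. Sema3b had the nearest protein-coding start, yet 9 protein-coding genes were in reach, and which of them the region serves was not tested.
Sema3b: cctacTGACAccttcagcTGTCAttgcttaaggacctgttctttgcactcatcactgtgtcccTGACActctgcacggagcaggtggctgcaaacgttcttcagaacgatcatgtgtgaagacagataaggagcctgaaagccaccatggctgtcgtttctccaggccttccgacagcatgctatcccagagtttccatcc
This window (chr9:107521739-107521939) held TGACA at 3 positions and no AAGTG.

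Sema3c, the outflow tract ligand, had a shared region in an intron at chr5:17211991-17212405, 132 kb from its start. Its scores were 185 in S1 and 222 in S4, at the percentiles 20.9 and 26.4 of all shared regions. S1 had a further intronic peak 128 kb from the start, which scored 198 and lay 2.96 kb from the nearest S4 peak, and S4 had one 62.1 kb from the start with a score of 162. The window of the shared region is printed because it held TNAAGTG at 2 positions, a reason chosen after the values were seen.
Sema3c: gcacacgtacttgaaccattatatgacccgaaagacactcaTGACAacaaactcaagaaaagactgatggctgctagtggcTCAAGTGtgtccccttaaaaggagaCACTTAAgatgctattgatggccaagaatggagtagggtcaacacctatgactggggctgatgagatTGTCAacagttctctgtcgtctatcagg
In this window (chr5:17212098-17212298) the matches lay at -16 bp and 9 bp from the midpoint, on opposite strands, with TGACA at 2 positions farther out.

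Sema3g, a secreted ligand, had its region at chr14:32021186-32022560, and here the scores differed most between libraries, 243 in S1 and 778 in S4. It was 9.17 kb upstream of Sema3g but only 0.375 kb from the start of Tnnc1, which encodes the troponin C of cardiac and slow muscle. The S4 peak was 2163 bp wide and the S1 peak 1375 bp, and 7 protein-coding entries of the annotation were in reach. The remaining class 3 genes, Sema3d, Sema3e and Sema3f, had no peak in either library. Their nearest shared regions lay 434 kb, 89.5 kb and 62 kb from the gene body, and the one nearest to Sema3f, the classical ligand of Nrp2, was the region by Sema3b.

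Both neuropilins had a shared region. Nrp1, which binds class 3 semaphorins and VEGF, had it in an intron 12.9 kb from the start, at chr8:130895523-130896263, and scored 465 in S1 and 291 in S4. Nearer to the start each library had 1 more peak without a partner, S1 1.11 kb upstream with a score of 141 and S4 2.42 kb downstream with a score of 226. At Nrp2 the region lay 9.66 kb past the 3′ end, at chr1:62874544-62875308, and the scores were close, 277 in S1 and 297 in S4. S4 had a further peak 157 kb from the Nrp2 start with a score of 294.5 that S1 lacked. Both windows are shown as they are among the 6 with the highest lower score.
Nrp1: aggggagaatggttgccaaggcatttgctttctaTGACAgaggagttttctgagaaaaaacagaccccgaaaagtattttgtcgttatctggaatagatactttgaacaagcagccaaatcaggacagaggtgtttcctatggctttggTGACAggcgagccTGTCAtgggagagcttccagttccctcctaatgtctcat
Nrp2: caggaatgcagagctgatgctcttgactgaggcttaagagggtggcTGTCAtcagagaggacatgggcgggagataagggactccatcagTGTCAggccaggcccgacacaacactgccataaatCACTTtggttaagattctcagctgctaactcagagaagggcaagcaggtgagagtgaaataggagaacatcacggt
The Nrp1 window (chr8:130895793-130895993) held TGACA at 3 positions and no AAGTG, and the Nrp2 window (chr1:62874826-62875026) held AAGTG once and TGACA at 2 positions.

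Plxna4, a receptor that acts with Nrp1 for Sema3a, was the only plexin with a shared region. It lay 4.89 kb upstream of the single annotated start, at chr6:32542816-32543347, with no other protein-coding gene in reach. The scores were 242 in S1 and 224 in S4, both under the median of all shared regions. Its window, also printed for its 2 matches of TNAAGTG, held them on opposite strands and overlapping each other, at -24 bp and -20 bp from the midpoint, and held TGACA at -11 bp and 6 bp.
Plxna4: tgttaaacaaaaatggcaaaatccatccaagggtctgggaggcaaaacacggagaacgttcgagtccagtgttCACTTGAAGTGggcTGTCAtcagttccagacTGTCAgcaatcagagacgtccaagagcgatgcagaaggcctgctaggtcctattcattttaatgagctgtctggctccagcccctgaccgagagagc
The window spans chr6:32542982-32543182, and the overlapping matches form 1 run of capitals.

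The other plexins had no shared region. Plxna2, which is expressed by cardiac neural crest, had 2 peaks in S1 and none in S4, 30.4 kb and 9.11 kb upstream with scores of 146 and 142, close to the lowest score of 140 that either list holds. Plxnd1, the endothelial receptor of Sema3e, had 1 peak in each library, but the S1 peak (score 163) was in an intron 11.3 kb from the start and the S4 peak (score 173) was 79.1 kb from it, beyond the gene. At Plxnb2 and Plxnb3 only S4 had a peak, with scores of 162 and 199, and the one near Plxnb3 lay 0.298 kb from the start of Idh3g. The Plxnb2 peak was in an intron, 1.17 kb downstream of the nearest annotated Plxnb2 transcript start. Plxna1, Plxna3, Plxnb1 and Plxnc1 had no peak, and their nearest shared regions were between 198 kb and 1621 kb away.

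Of the membrane ligands, Sema4b had a shared region 5.5 kb upstream of its start, at chr7:87326034-87326410, and scored 207 in S1 and 246 in S4. S1 had another peak 8.31 kb upstream (score 168) and S4 another in an intron 22 kb downstream of the start (score 245). Sema4d, the ligand of Plxnb1, and Sema4f had 1 peak each, in S4 alone, with scores of 165 and 168. The Sema4d peak lay 78.7 kb into its gene, but only 0.866 kb upstream of the nearest annotated Sema4d transcript start. The Sema4f peak lay 54.9 kb from its start and past its 3′ end. Sema4a, Sema4c and Sema4g had no peak, and the nearest shared regions were 240 kb, 356 kb and 1273 kb away. Sema5a, which carries thrombospondin repeats, had a shared region in an intron at chr15:32196094-32196661, 21.8 kb from its start, and it scored 323 in S1 and 258 in S4. The window at Sema5a was the only 1 of the 15 with neither AAGTG nor TGACA. Sema5b had no peak, and its nearest shared region was 316 kb away.

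Sema6d, a membrane ligand of Plxna1 that has been studied in heart chamber formation, held 5 of the 15 shared regions in its 578 kb. Numbered along the gene, regions 1 and 2 lay in introns at chr2:123951042-123951670 and chr2:123952482-123953223, with scores of 348 and 349 in S1 and 283 and 222 in S4. Region 3, at chr2:124313572-124314339, had the highest scores at this gene, 394 in S1 and 320 in S4. Region 4, at chr2:124333482-124334017, scored 144 in S1 and 145 in S4, near the lowest score of the lists in both. Regions 3 and 4 lay 122 kb and 102 kb from the nearest of 7 annotated starts of Sema6d transcripts. Region 5, at chr2:124487924-124488519, scored 167 in S1 and 210 in S4, and its midpoint was in an exon of an annotated transcript that retains an intron. The scores of regions 1 to 3 were higher in S1, and those of regions 4 and 5 were higher in S4.

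The windows of regions 1 and 3 (chr2:123951256-123951456 and chr2:124313856-124314056) are shown for their scores, and that of region 4 (chr2:124333650-124333850) because it was the only 1 of the 15 with GTGNTGACA.
Sema6d region 1: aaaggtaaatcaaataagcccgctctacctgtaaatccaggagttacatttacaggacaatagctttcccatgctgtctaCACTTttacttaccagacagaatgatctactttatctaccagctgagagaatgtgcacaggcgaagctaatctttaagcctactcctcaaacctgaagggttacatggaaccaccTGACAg
Sema6d region 3: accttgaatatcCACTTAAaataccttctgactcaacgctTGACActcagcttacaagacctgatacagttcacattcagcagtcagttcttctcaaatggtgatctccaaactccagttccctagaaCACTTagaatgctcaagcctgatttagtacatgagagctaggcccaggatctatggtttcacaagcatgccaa
Sema6d region 4: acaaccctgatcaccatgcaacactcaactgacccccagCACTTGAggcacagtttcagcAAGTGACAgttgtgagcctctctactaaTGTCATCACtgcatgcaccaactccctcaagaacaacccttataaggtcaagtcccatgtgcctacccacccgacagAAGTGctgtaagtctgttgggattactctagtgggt
In region 4 both cores overlap as AAGTGACA around -38 bp from the midpoint, and the spaced form is read on the minus strand as TGTCATCAC around -8 bp. Region 4 had the lowest scores of the 15.

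Few long genes had as many regions as Sema6d. Of the 146 protein-coding genes at least as long, itself included, 5 had 5 or more shared regions, with a median of 0 and at most 6. Among all protein-coding genes 40 had 5 or more (0.179%). Each library also had 2 peaks in Sema6d without a partner, with scores of 153 and 146 in S1 and 198 and 382 in S4, and the S1 peak that scored 146 lay 0.581 kb from a Sema6d transcript start. Among the other class 6 genes, Sema6a had 1 peak in S1 (score 155), 2.46 kb inside the gene, Sema6b had none within 50 kb and its nearest shared region 871 kb away, and Sema6c had 1 peak in each library at opposite ends of its reach. The Sema6c peaks, scoring 180 (S1) and 202 (S4), lay 0.137 kb from the start of Gabpb2 and 0.193 kb from that of Vps72.

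Read as ligands and receptors, the presence of shared regions did not follow pairs throughout. Sema3a, Nrp1 and Plxna4, which act together in axon guidance, each had one. Sema3e and Plxnd1, Sema4d and Plxnb1, and Sema7a and Plxnc1, each a known ligand and receptor, had none at either gene. Nrp2 had one and Sema3f did not, and Sema6d had 5 while Plxna1 had no peak. These pairs were picked after the values were seen and are given as a description.

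The median score of the 15 regions lay near that of all shared regions in S1 and below it in S4. It was 277 in S1, with a range of 144 to 2559, beside 280 for all shared regions, and 283 in S4, with a range of 145 to 2059, beside 315. In S1 7 of the 15 were above the median of all shared regions, and in S4 5 were. S4 was higher at 8 regions and S1 at 7, with a median log2 ratio of S4 to S1 of 0.01 beside 0.16 over all shared regions, and 14 of the 15 had scores within 2-fold of each other, beside 85.7% of all. Sema3g was the exception, with a log2 ratio of 1.68. The stretches covered by both peaks had a median of 629 bp, beside 627 bp for all. Of the peaks at these genes, 15 of 26 in S1 (57.7%) and 15 of 31 in S4 (48.4%) were shared, beside 58.9% and 47.0% of all peaks.

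**Figure D4:**
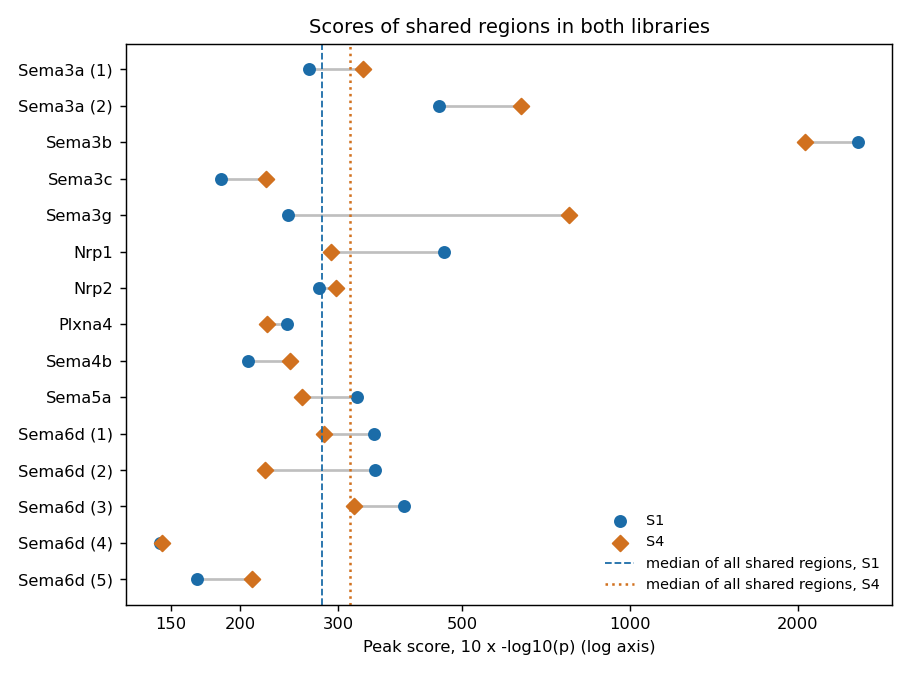
Peak score (x axis, log scale) of each of the 15 shared regions in S1 (blue circles) and S4 (orange diamonds), with the medians of all shared regions as vertical lines (280 in S1, dashed, and 315 in S4, dotted). The region by Sema3b stands at 2559 and 2059, and the libraries lie farthest apart at Sema3g.

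Promoters, within 1 kb of any annotated transcript start, held 2 of the 15 midpoints (13.3%, exact interval 1.7 to 40.5), beside 17.1% of all shared regions. These were the first region of Sema3a and the region of Sema3g, which lay at the start of Tnnc1. Within 5 kb of a transcript start the order turned, with 33.3% of the 15 and 30.4% of all shared regions. Windows reaching 100 bp to either side of each midpoint were searched on both strands for exact matches, and AAGTG was present in 9 of 15 (60.0%) and in 64.0% of all shared regions. TGACA was present in 12 (80.0%) and in 64.7% of all. The longer TNAAGTG was present in 7 (46.7%), beside 32.4%, and GTGNTGACA in 1 (6.7%), beside 9.5%. Either of the longer forms was present in 7 (46.7%, exact interval 21.3 to 73.4), beside 39.1% of all shared regions. Of these 7 regions, 4 belonged to Sema6d, and without that gene the share was 30.0% of 10 regions, below that of all shared regions. With scores of 200 or more in both libraries it was 33.3%, and no share of all regions is given at that cut. Within 50 bp of the midpoint it was 26.7% beside 22.6% of all, and over the whole stretch it was 60.0% beside 61.6%, so the order depends on the setting. Bases G and C made up a median of 49.3% of these windows, beside 49.8% of all.

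Beside all peaks without a partner, the 27 at these genes had a lower median score in S1 and a higher one in S4. The median was 155 over 11 peaks in S1 and 191 over 16 peaks in S4, beside 171 and 183 for all peaks without a partner. The highest were the S4 peaks 3.84 kb upstream of Sema3g (score 398) and in Sema6d (score 382), while the highest S1 peak without a partner scored 198. The S4 peak by Sema3g was nearer to the start of Nisch, at 2.92 kb.

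Other genes of semaphorin signalling were read from a list of 50 partners, among them cytoplasmic effectors, kinases and alternative co-receptors, all of which were found in the annotation. A shared region was present at 13 (26.0%), beside 21.1% for genes of like length, and the median was 0 regions both for the partners and for all protein-coding genes. Mical2, of a family of actin-oxidising enzymes that act downstream of plexins, had 4, of which the highest lay in an intron 32.9 kb from its start and scored 396 in S1 and 760 in S4. Erbb2, a receptor kinase that associates with plexins of class B, and Itga1, an integrin chain, had 3 each, and Fyn, a kinase downstream of Sema3a, had 2. The highest region at Erbb2 lay 38 kb upstream of its start. At Rnd3, a small GTPase of the family that binds plexins, the region lay 8.83 kb upstream and scored 499 in S1 and 277 in S4. The remaining 8 with 1 region each were Dpysl2, Dpysl3, Mical3, Farp1, Rras, Arhgef12, Limk1 and Cfl1, and the receptors Kdr, Flt1 and Met were among those without one. The Rras region lay 44.5 kb downstream of its start, beyond the gene. The Limk1 region scored 142 in S1, near the lowest score of the lists. Which genes the partner regions serve was not tested.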

How the data were processed

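Whole-heart chromatin was sequenced on a Genome Analyzer IIx. Per the labels and the methods of the study, the authors aligned reads to mm9 with BOWTIE and called peaks with MACS 1.4 on each ChIP library. CASAVA 1.4 is also named in the submitters' processing notes. The settings, the version of BOWTIE and the use of the Input as control are not given in the sources used here. The deposited score is 10 times the negative log10 of the caller's p-value, read from the values and the usual format of such files, and was not scaled between libraries. No peak scored under 140, and all peaks lay within the chromosomes of NCBIM37, which is mm9.

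From these lists, S1 and S4 peaks that overlapped by at least 1 bp were paired, pairs with a peak in common were merged, and the pair with the highest lower score stood for the region. The counts of overlapping peaks, 2601 in S1 and 2555 in S4, were the same with bedtools 2.31.1. Gene bodies, transcript starts and exons came from GENCODE M1, with coordinates counted from 1. The share for genes of like length is the share in each of 10 length classes, averaged over the members. Motifs were exact matches on both strands, and their positions are those of the central base of the match. No summits were used, so windows were centred on the stretch of both peaks.

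The genes, the partner list, the motifs and the alternatives were chosen with earlier results of these data known. Every gene was named, with its highest region and both scores. The windows printed are the 6 with the highest lower score, those with GTGNTGACA and those with 2 matches of TNAAGTG. No test between groups was possible with 1 condition, and no p-value is given. Tested on simulated data over 22380 genes, the procedure found 200 of 200 genes with planted shared peaks, and the motif search found 500 of 500 planted copies. The planted peaks were made to overlap inside the genes, only GTGNTGACA was planted, and false calls were not counted. This checks the code and not the reported shares. Calculations used Python 3.11.15, numpy 2.4.6 and scipy 1.17.1.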

Additional observations from a re-analysis of the deposited data

How the results depend on the processing

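Of 55 alternatives computed, 31 left the value within its limits and 24 moved it. Limits were the 95% interval for shares of the genes or regions, 1.5-fold for the number of regions, and the SD over the 2 libraries for median scores (3.61) and for the share of genes of like length (3.96 points). The intervals are wide and the SD of the medians is small, so these counts depend on the limits as well as on the processing. The share of the 31 genes was above that of genes of like length under every alternative that gave both. These alternatives reuse the same genes and the same peak lists, so they do not count as separate evidence. Keeping only peaks that scored 200 or more left 29.0% of the genes and lowered the share of like length to 14.6%, with median scores of 336 in S1 and 294 in S4. Counting the gene body alone gave 16.1% of the genes beside 11.6%, 9 regions, and medians of 323 and 258. A reach of 10 kb gave 29.0% beside 14.3%, 100 kb gave 45.2% beside 29.9%, and assigning each region to the nearest start gave 29.0% beside 13.4%. Midpoints within 150 bp gave 25.8% beside 17.3%, and medians of 313 and 287. Requiring the overlap to cover 50% of each peak moved the medians to 300 and 287. All peaks of S1 alone gave 45.2% of the genes beside 34.4%, those of S4 alone gave 51.6% beside 40.0%, and all peaks at the genes had medians of 198 in S1 and 224 in S4. Without length classes the share of genes was 15.7%. Without Sema6d, chosen after seeing the data, the medians were 272 and 294, 10 regions remained and 30.0% of them held a longer motif form. Leaving out regions inside another gene, also chosen afterwards, left 25.8% of the genes, with no share of like length computed. Stricter settings leave fewer genes and regions by construction. What moved the median scores was not tested. Depth was not used here and limits the reading of scores and of genes without a peak. No paired analysis was possible because there is 1 condition.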

Other observations

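At Sema3g and Nrp1 both libraries had peaks without a partner that lay close to each other but did not overlap. Upstream of Sema3g, an S1 peak with a score of 197 ended 0.075 kb from an S4 peak with a score of 164, and at Nrp1 the peaks on either side of the start were 2.9 kb apart. The peaks by Sema3g were nearer to other starts, the S1 peak 4.16 kb from Tnnc1 and the S4 peak 3.77 kb from Nisch. In all, 7 of the 27 peaks without a partner at these genes lay within 5 kb of a peak of the other library. The same share over all peaks without a partner was not computed, so the count is a description only. Others lay far from any peak of the other library, among them the S4 peaks at Plxnb3 (1024 kb), Sema4d (362 kb) and Sema4f (295 kb) and both S1 peaks at Plxna2 (246 kb and 267 kb).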
